A study of Mus musculus with 12 samples.

Results

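The genes described here build and regulate the chromosome axes, cohesin rings and recombination machinery of meiosis, and they were measured in mouse embryonic stem (ES) cells that lack 1 or both of a pair of Polycomb proteins. Every probe set whose symbol in the platform annotation was Sycp1, Sycp2, Sycp3, Stag3, Smc1b, Rec8, Hormad1, Hsf2bp, Tex11 or Stra8 was taken, which gave 11 probe sets of 10 genes among 45037 probe sets that are not array controls. Hsf2bp had 2 probe sets and each of the other genes had 1, and none of the 932 probe sets with several symbols named a member. All 11 were tested, with no filter on low values.

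ES cells are pluripotent cells of the early embryo that divide by mitosis in culture. Total RNA of 4 genotypes was hybridised to Affymetrix Mouse 430_2.0 arrays, with 3 biological replicates per genotype and 12 arrays in all. The genotypes were wild type, Ring1B deficient (targeted in the gene Rnf2), Eed deficient (targeted in Eed) and Ring1B/Eed double deficient, in which Ring1B had been targeted in cells already deficient for Eed, so that the Eed deficient and double deficient cells share the same Eed loss. No label describes more than 1 line per genotype, so a difference between lines and a difference between genotypes cannot be told apart. The p-values rest on the spread among replicates within genotypes, estimated jointly over all 12 arrays. How the 3 replicates of a genotype were separated, beyond the word biological, is not described.

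Ring1B is the ubiquitin ligase of Polycomb repressive complexes that mark histone H2A, and the complex that methylates the tail of histone H3 cannot work without Eed. In meiosis, cohesin rings with meiosis-specific subunits organise each chromosome along an axis, HORMA-domain proteins load on that axis, and the synaptonemal complex zips the axes of homologous chromosomes together while recombination proceeds. Many such genes are silent in somatic and ES cells, where a variant Polycomb complex with E2F6, MGA, MAX and L3MBTL2 is known to repress part of them through their promoters.

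The promoters of 9 of the 10 genes were listed by RefSeq for the build GRCm38.p6, and those of the 5 listed genes that passed the test in any mutant are printed below, 5′ to 3′ on the strand of the gene, from 180 bases before to 10 bases after the listed start. They lie at chr3:102936091-102936280 (minus strand) for Sycp1, chr2:178407649-178407838 (minus strand) for Sycp2, chr5:138280329-138280518 (plus strand) for Stag3, chr3:95559497-95559686 (plus strand) for Hormad1 and chr17:32034499-32034688 (minus strand) for Hsf2bp. The listed starts of Sycp2, Stag3 and Hsf2bp lie inside the annotated span of the gene. Capitals mark the letters GCGGGA or TCCCGC, the core of the E2F6-type element on either strand, and CACGTG, the E box that MAX-containing dimers are known to bind.
Sycp1: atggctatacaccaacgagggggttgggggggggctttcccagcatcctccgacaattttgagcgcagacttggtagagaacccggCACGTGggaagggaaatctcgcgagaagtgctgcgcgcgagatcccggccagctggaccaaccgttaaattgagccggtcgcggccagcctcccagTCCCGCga
Sycp2: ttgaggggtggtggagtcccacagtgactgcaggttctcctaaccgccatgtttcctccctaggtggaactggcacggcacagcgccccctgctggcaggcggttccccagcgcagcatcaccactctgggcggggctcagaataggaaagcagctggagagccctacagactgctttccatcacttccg
Stag3: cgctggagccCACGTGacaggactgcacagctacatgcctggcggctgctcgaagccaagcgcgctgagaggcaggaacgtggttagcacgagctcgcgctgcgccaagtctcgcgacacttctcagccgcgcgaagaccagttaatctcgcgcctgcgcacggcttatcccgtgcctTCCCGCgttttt
Hormad1: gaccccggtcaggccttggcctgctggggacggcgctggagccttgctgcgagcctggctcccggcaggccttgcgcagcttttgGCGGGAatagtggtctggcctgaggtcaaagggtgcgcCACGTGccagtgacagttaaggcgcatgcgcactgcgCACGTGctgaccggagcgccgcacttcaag
Hsf2bp: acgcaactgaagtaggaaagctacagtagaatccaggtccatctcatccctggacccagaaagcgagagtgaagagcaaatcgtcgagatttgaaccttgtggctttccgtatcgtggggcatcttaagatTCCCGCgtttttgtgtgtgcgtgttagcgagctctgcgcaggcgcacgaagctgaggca

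Over the whole window of 300 bases, from 250 before to 50 after the start, the E2F6-type letters stood in 7 of the 9 member promoters (77.8%), against 6562 of all 32851 promoters of the table. Sycp2 and Stra8 were the members without them. The E box stood in 4 of 9, those of Sycp1, Sycp3, Stag3 and Hormad1 (44.4%), against 7.15% of all promoters, and the 2 motifs share no letters at any of these matches. Member promoters held a median of 20 CG pairs in the window, against 7 over the table. Both motifs contain a CG pair, and the table was not matched to the members in CG pairs. Member genes were counted with 1 promoter a gene, whereas the table counts every promoter listed. The shares are therefore a description and do not measure an enrichment of the motifs. The other meiosis genes described further on, of which 26 had a promoter in the table, lay between the members and the table, with the E2F6-type letters in 13, the E box in 4 (15.4%) and a median of 16.5 CG pairs. Of the members called against wild type, Sycp1, which rose, and Stag3, Hormad1 and Hsf2bp, which fell, carried the E2F6-type letters. Sycp2, which rose, carried neither motif, and Tex11, which also rose, had no promoter in the table. A link between the letters and the changes was not tested, and a match is a stretch of letters and not a measured binding site.

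**Figure D1:**
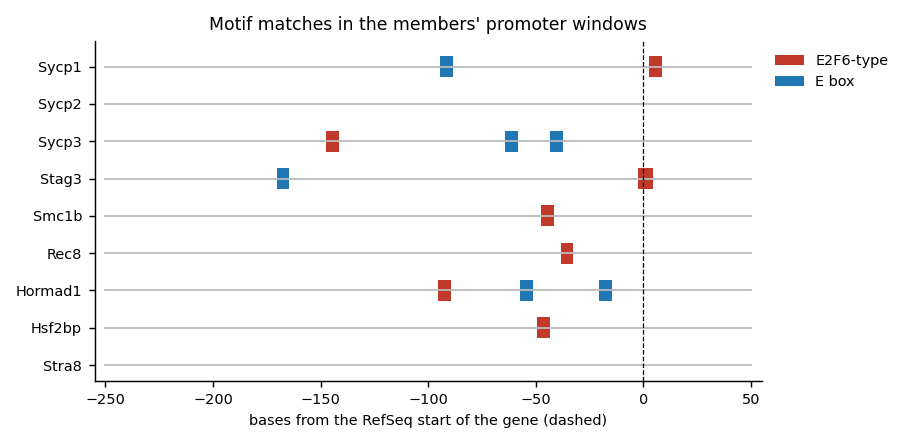
Positions of the E2F6-type letters (red) and the E box (blue) in the promoter windows of the 9 member genes listed by RefSeq, in bases from the listed start (dashed line). The red boxes appear in 7 windows and the blue boxes in 4, and the windows of Sycp2 and Stra8 hold neither.

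The arrays had been scaled to a common level by the authors, each with a 2% trimmed mean of 100, and array medians ran from 19.07 to 28.01. Correlations between replicates of a genotype ran from 0.969 to 0.979. Eed signal (probe set 1448653_at) was 1428 ± 159 in wild type and 1642 ± 283 in Ring1B deficient cells, and fell to 37.82 ± 13.1 with Eed lost and 71.21 ± 21.0 with both lost (each ± SD with n = 3). Rnf2 signal (1424873_at) was 850.9 ± 124 and 778.8 ± 168 in the wild type and Eed deficient cells, and 467.9 ± 65.7 and 382.8 ± 18.8 in the Ring1B deficient and double deficient cells. Which part of either gene was deleted is not given in the sources used here, so the remaining Rnf2 signal checks the labels only as far as its direction. In such bulk RNA, fewer cells that express a gene and less RNA per cell cannot be told apart.

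**Figure D2:**
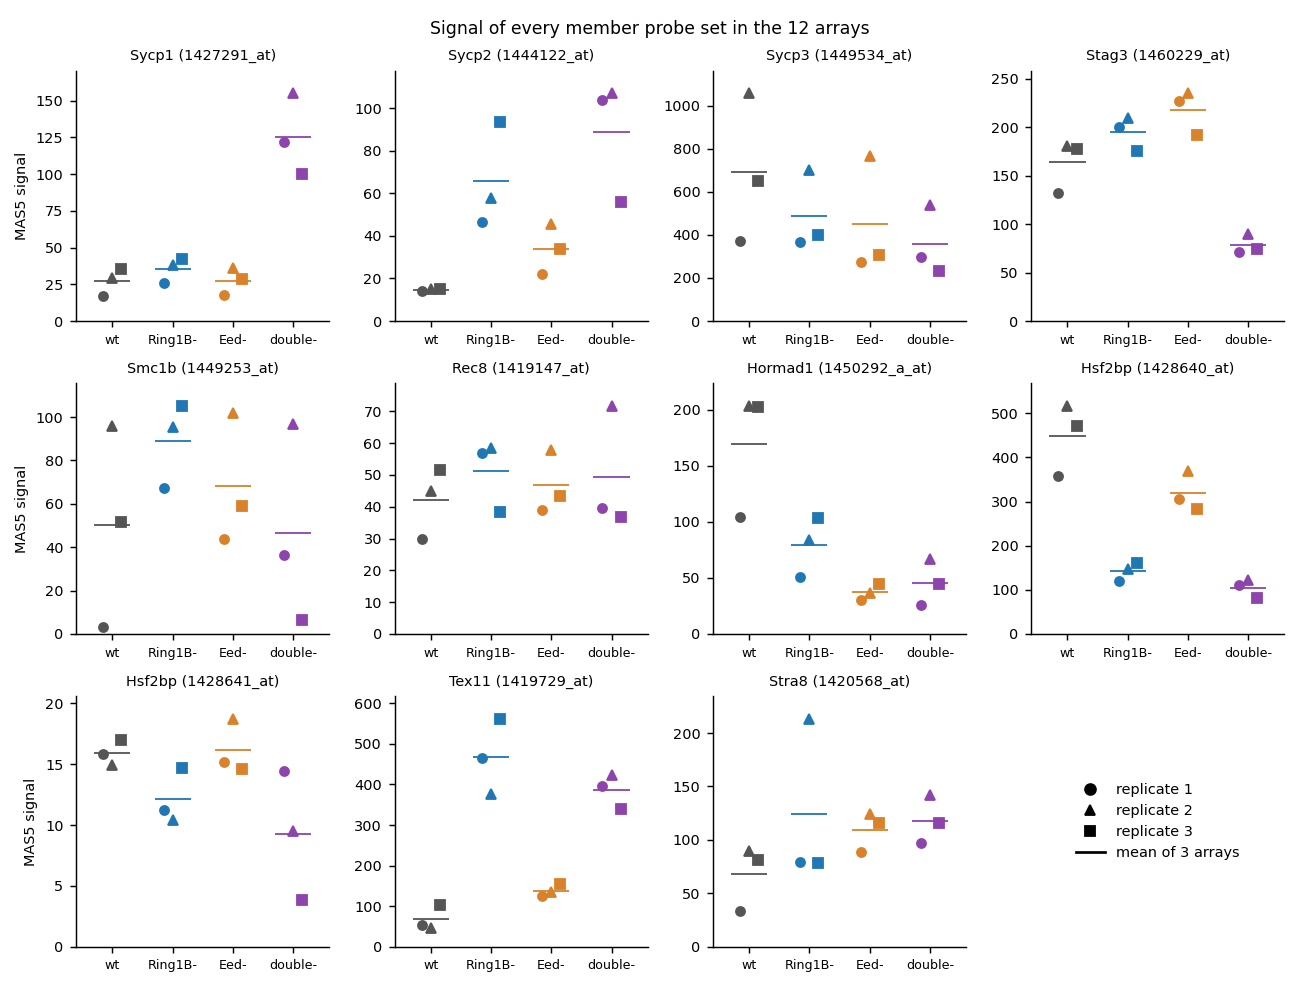
MAS5 signal (linear scale, vertical axis) of each of the 11 member probe sets in the 12 arrays, by genotype: wild type (wt), Ring1B deficient (Ring1B-), Eed deficient (Eed-) and double deficient (double-). Symbols stand for the replicate number and the horizontal line for the mean of 3 arrays. Sycp1 is high in the 3 double deficient arrays and Tex11 in the 6 arrays without Ring1B, whereas Sycp3 is highest in replicate 2 of every genotype.

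Among the synaptonemal complex genes, Sycp1, which encodes the transverse filament that spans the gap between homologous axes, rose only in the comparisons that involve the double deficient cells. Its signal (chromosome 3) was 16.8, 29.0 and 35.6 in wild type arrays, 26.2, 38.1 and 42.5 with Ring1B lost, 17.4, 36.3 and 28.8 with Eed lost, and 122, 155 and 99.9 with both lost. The 3 double deficient values lay above all 9 others, and the other genotypes overlapped one another. The mean in double deficient cells was 4.63-fold the wild type mean, a log2 change of 2.05 (SE 0.29, limma adjusted p = 0.00039 over all 45037 probe sets). Double deficient cells also exceeded Ring1B deficient cells by 1.69 (adjusted p = 0.0039) and Eed deficient cells by 2.03 (adjusted p = 0.0091). For single mutants against wild type the log2 differences were 0.36 (95% interval -0.26 to 0.98) with Ring1B lost and 0.02 (-0.60 to 0.64) with Eed lost, and neither was called. The interaction, which is the change on losing Ring1B in Eed deficient cells minus the change on losing it in wild type cells, was 1.67 for Sycp1 and was not called (SE 0.41, adjusted p = 0.10). A larger effect of combined loss was therefore not shown for it by the test of the difference without a replicate block. With the replicate number as a block, the interaction was called (adjusted p = 0.016). Without the 4 arrays that carry replicate number 2, a choice made after the data were seen, the comparison with Eed deficient cells was no longer called (adjusted p = 0.091).

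Sycp2, a lateral element protein that lines each homologous axis, rose in both genotypes without Ring1B. Its signal (chromosome 2) was 14.1, 15.2 and 14.9 in wild type arrays, 46.7, 57.6 and 93.6 with Ring1B lost, 22.1, 45.6 and 33.8 with Eed lost, and 104, 107 and 56.1 with both lost. Every mutant array lay above the wild type arrays, whose values were below the lowest array median. Wild type signal that low lies near background, so the size of the folds over it is uncertain. The mean was 4.48-fold the wild type mean in Ring1B deficient cells (log2 change 1.79, SE 0.30, adjusted p = 0.0059) and 6.04-fold in double deficient cells (2.20, SE 0.30, adjusted p = 0.00032). In Eed deficient cells the difference was 0.93 and was not called (SE 0.30, adjusted p = 0.093). In the order wild type, Eed deficient, Ring1B deficient, double deficient, no pair of neighbours differed past the threshold (adjusted p = 0.093, 0.23 and 0.46). The Ring1B call had an adjusted p of 0.055 without the 4 arrays of replicate number 2.

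Sycp3, the partner of Sycp2 in the lateral element, was not called in any genotype comparison without a replicate block. Its signal (chromosome 10) was 370, 1058 and 653 in wild type arrays, 367, 704 and 401 with Ring1B lost, 276, 767 and 307 with Eed lost, and 299, 537 and 234 with both lost. All genotypes overlapped wild type, and against it the log2 differences were -0.43, -0.65 and -0.91 (SE 0.44, adjusted p = 0.78, 0.49 and 0.19). With the replicate number as a block, Sycp3 was called lower with Eed lost and with both lost (adjusted p = 0.03 and 0.0024). Same-numbered arrays did not all correlate over 0.1 in those comparisons. Replicate 2 was the highest array in each of the 4 genotypes, with 1.84 to 2.63 times the mean of replicates 1 and 3. In a comparison added after the data were seen, replicate 2 exceeded the other replicates by 1.09 on the log2 scale (SE 0.13, adjusted p = 0.00092), in a fit that called 4.67% of all probe sets higher and 4.65% lower in replicate 2. Without those 4 arrays Sycp3 passed the threshold as lower in double deficient cells (-0.88, adjusted p = 0.044).

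The meiotic cohesin genes went different ways. Stag3, the meiosis-specific stromal subunit shared by meiotic cohesin complexes, fell in double deficient cells against each of the other genotypes. Its signal (chromosome 5) was 132, 181 and 178 in wild type arrays, 200, 210 and 176 with Ring1B lost, 227, 235 and 192 with Eed lost, and 71.6, 89.7 and 74.5 with both lost. All 3 double deficient arrays lay below all 9 others. The wild type mean was 2.08-fold the double deficient mean, a log2 change of -1.01 (SE 0.16, adjusted p = 0.00078), and the change was -1.26 against Ring1B deficient cells (adjusted p = 0.00056) and -1.42 against Eed deficient cells (adjusted p = 0.002). In either single mutant the difference from wild type was not called, at 0.26 with Ring1B lost (95% interval -0.08 to 0.59, adjusted p = 0.54) and 0.41 with Eed lost (0.07 to 0.75, adjusted p = 0.16). Stag3 was the 1 member of 11 called in the interaction, at -1.67 (SE 0.22, adjusted p = 0.0049), where 0.224% of all probe sets were called higher and 0.324% lower. Loss of Ring1B thus went with a fall in Eed deficient cells and with no called change in wild type cells, and the difference itself passed the test. The interaction had an adjusted p of 0.061 without the arrays of replicate number 2.

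Smc1b and Rec8, the meiotic counterparts of the SMC1 and kleisin subunits of mitotic cohesin, were called in no comparison. Smc1b signal (chromosome 15) was 3.02, 95.9 and 51.6 in wild type arrays, 67.1, 95.5 and 105 with Ring1B lost, 44.0, 102 and 58.9 with Eed lost, and 36.6, 96.9 and 6.29 with both lost. Its replicates spread more than its genotypes. The Ring1B difference was 1.37 (SE 0.83, 95% interval -0.43 to 3.17, adjusted p = 0.55), so its size was poorly determined. Rec8 signal (chromosome 14) was 30.0, 45.0 and 51.4 in wild type arrays, 57.0, 58.4 and 38.4 with Ring1B lost, 39.0, 58.0 and 43.4 with Eed lost, and 39.6, 71.6 and 36.9 with both lost. Its log2 differences from wild type were between 0.15 and 0.26 (SE 0.27), with overlap among all genotypes. Of the 7 mitotic cohesin genes and partners listed beside them, none was called in either single mutant and 1 fell in double deficient cells, Nipbl, a cohesin loader (-0.66, adjusted p = 0.043), named here after its value was seen.

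Hormad1, an axis protein that recruits checkpoint and recombination factors to unsynapsed chromosomes, fell in both genotypes without Eed. Its signal (chromosome 3) was 104, 203 and 202 in wild type arrays, 50.7, 83.4 and 103 with Ring1B lost, 30.0, 36.7 and 44.5 with Eed lost, and 25.6, 66.8 and 44.5 with both lost. No mutant array reached the lowest wild type array, and the highest Ring1B deficient array, at 103, came close to it. The wild type mean was 4.57-fold the Eed deficient mean (log2 change -2.01, SE 0.34, adjusted p = 0.0032) and 3.72-fold the double deficient mean (-1.81, SE 0.34, adjusted p = 0.0027). In Ring1B deficient cells the difference was -1.05 and was not called (SE 0.34, adjusted p = 0.15). With the replicate number as a block it was called (adjusted p = 0.006), though same-numbered arrays did not all correlate over 0.1 there. In the order Eed deficient, double deficient, Ring1B deficient, wild type, no neighbours differed past the threshold without the block (adjusted p = 0.85, 0.19 and 0.15). Between the single mutants, Eed deficient cells were lower by a log2 difference of -0.96, which was not called (adjusted p = 0.23) but was called with the replicate number as a block (adjusted p = 0.014).

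Hsf2bp, also known as MEILB2, which brings BRCA2 to meiotic double-strand breaks, fell in both genotypes without Ring1B. The stronger probe set, 1428640_at (chromosome 17), read 357, 516 and 472 in wild type arrays, 121, 148 and 160 with Ring1B lost, 306, 369 and 283 with Eed lost, and 110, 122 and 81.7 with both lost. The 6 arrays without Ring1B lay below the 6 arrays with it. Against wild type the log2 change was -1.61 with Ring1B lost (SE 0.18, adjusted p = 0.00038, the wild type mean being 3.13-fold the mutant mean) and -2.05 with both lost (SE 0.18, adjusted p = 1.2e-05, 4.29-fold). With Eed lost it was -0.48 and was not called (SE 0.18, adjusted p = 0.17). The interaction for Hsf2bp was 0.03 (SE 0.26, 95% interval -0.53 to 0.59, adjusted p = 0.98), with changes on losing Ring1B of -1.61 in wild type cells and -1.58 in Eed deficient cells (adjusted p = 0.0022). Between the single mutants, Eed deficient cells were higher by 1.13 (adjusted p = 0.011). Without the arrays of replicate number 2 the Eed deficient comparisons with double deficient and with Ring1B deficient cells had adjusted p of 0.05 and 0.087, and with only the groups compared in the fit the latter had 0.055. The weaker probe set of the gene, 1428641_at, read between 3.87 and 18.7 in all 12 arrays, below the lowest array median, and was not called. Its differences from wild type were -0.29, 0.01 and -0.62 (adjusted p = 0.74, 0.99 and 0.14), so the 2 probe sets did not give the same calls.

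Tex11, an X-linked gene whose product, a counterpart of yeast Zip4, promotes crossovers and synapsis, rose in all 3 mutants. Its signal was 52.6, 47.3 and 102 in wild type arrays, 466, 376 and 561 with Ring1B lost, 126, 134 and 154 with Eed lost, and 396, 424 and 340 with both lost. Wild type, Eed deficient and the 2 genotypes without Ring1B formed separate ranges, while Ring1B deficient and double deficient arrays overlapped. Against wild type the mean was 6.94-fold with Ring1B lost (log2 change 2.76, SE 0.23, adjusted p = 3.7e-05), 2.04-fold with Eed lost (1.05, SE 0.23, adjusted p = 0.018) and 5.74-fold with both lost (2.51, SE 0.23, adjusted p = 1.8e-05). Eed deficient cells were lower than Ring1B deficient cells by a log2 difference of -1.71 (adjusted p = 0.0047) and double deficient cells exceeded Eed deficient cells by 1.45 (adjusted p = 0.018). Double deficient and Ring1B deficient cells were not told apart (-0.26, 95% interval -0.77 to 0.25, adjusted p = 0.56), and the interaction of -1.31 was not called (SE 0.33, adjusted p = 0.12). The Eed call was lost on leaving out Eed deficient replicate 3 (adjusted p = 0.076) or wild type replicate 1 or 2 (0.071 and 0.063), without the arrays of replicate number 2 (0.12), and when only those 2 groups were fitted (0.088). The rise from Eed deficient to double deficient was lost without Eed deficient replicate 1 or 2 (0.076 and 0.062), without double deficient replicate 1, 2 or 3 (0.075, 0.062 and 0.076) and without the arrays of replicate number 2 (0.11). Without wild type replicate 3, the array with the highest wild type value, the interaction was called (-1.63, adjusted p = 0.014).

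Stra8, which retinoic acid induces at the entry into meiosis, was not called against wild type in any mutant without a replicate block. Its signal (chromosome 6) was 33.3, 89.7 and 81.4 in wild type arrays, 79.5, 213 and 78.5 with Ring1B lost, 88.6, 124 and 116 with Eed lost, and 96.7, 142 and 116 with both lost. The double deficient arrays lay above the wild type arrays, and the 2 single mutants overlapped them. The log2 differences were 0.76, 0.74 and 0.84 (SE 0.38, adjusted p = 0.42, 0.32 and 0.16). With the replicate number as a block, the double deficient difference was called (adjusted p = 0.027). Stra8 was also highest in replicate 2 of all 4 genotypes, by 0.70 on the log2 scale (adjusted p = 0.033), and no other member besides Sycp3 passed that comparison.

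Counted over the 11 probe sets, 2 rose (Sycp2 and Tex11) and 1 fell (Hsf2bp) in Ring1B deficient cells, where 1.63% of all probe sets were called higher and 0.793% lower. In Eed deficient cells 1 rose (Tex11) and 1 fell (Hormad1), against 4.27% higher and 1.67% lower over all probe sets. In double deficient cells 3 rose (Sycp1, Sycp2 and Tex11) and 3 fell (Stag3, Hormad1 and Hsf2bp), against 10.3% and 5.05%. The median log2 change over the members was 0.26, 0.15 and 0.02 in these comparisons, beside -0.01, 0.01 and 0.12 over all probe sets. The comparisons share the wild type arrays, so their calls are not independent. Subtracting array medians turned the calls over all probe sets in double deficient cells from 4644 higher and 2275 lower to 2737 higher and 5328 lower, and quantile normalization gave 3438 and 3148. The member counts under both scalings were 3 and 3.

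**Figure D3:**
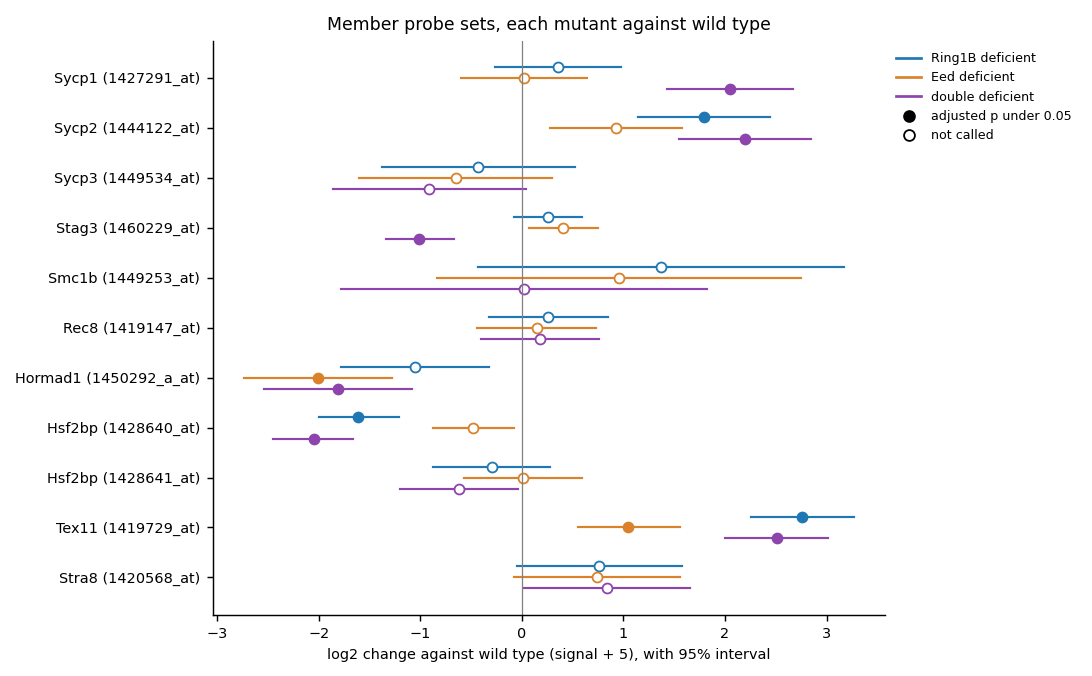
Log2 change of signal + 5 against wild type for each member probe set in the 3 mutants, with 95% intervals from the fit. Filled points passed an adjusted p under 0.05. Tex11 is filled on the right in all 3 mutants, and Stag3 and Sycp1 are filled in the double deficient cells alone.

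Against Ring1B deficient cells, double deficient cells had 1 member higher (Sycp1) and 1 lower (Stag3), where 5.83% of all probe sets were higher and 2.36% lower. Against Eed deficient cells they had 2 higher (Sycp1 and Tex11) and 2 lower (Stag3 and Hsf2bp), where 0.373% were higher and 0.249% lower. Between single mutants, Eed deficient cells had 1 member higher (Hsf2bp) and 1 lower (Tex11), where 1.03% were higher and 0.333% lower. With the replicate block, the calls between the single mutants over all probe sets went from 464 higher and 150 lower to 1193 and 593, and those over the members from 2 to 3. In the order of these 3 comparisons, the members' median log2 changes were -0.33, 0.03 and -0.22, beside 0.12, 0.09 and 0.02 over all probe sets. For the interaction the medians were -0.34 over the members and 0.09 over all probe sets. Without the arrays of replicate number 2, 1 member was called between double deficient and Eed deficient cells and 1 between the single mutants.

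**Figure D4:**
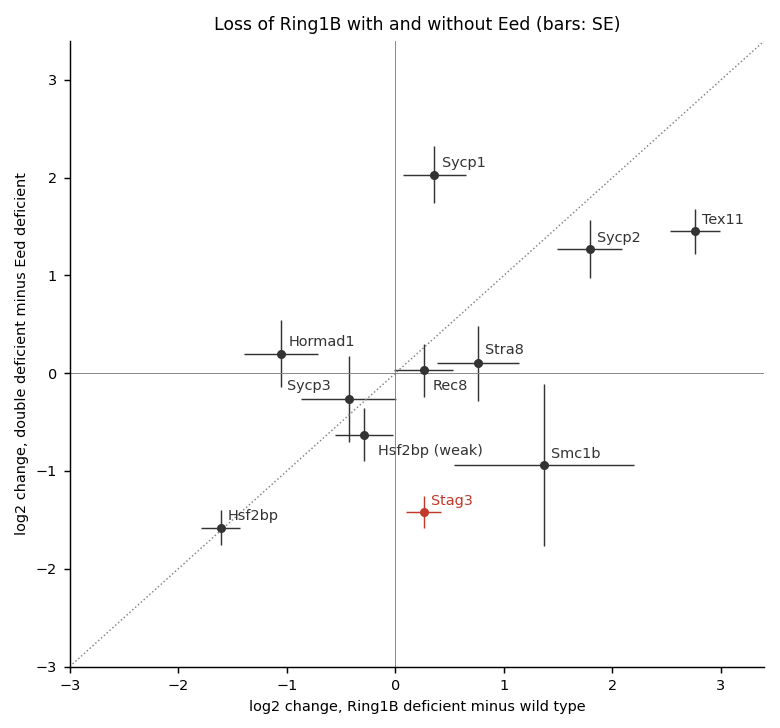
Log2 change on losing Ring1B in wild type cells (horizontal axis) and in Eed deficient cells (vertical axis) for the 11 member probe sets, with standard errors as bars and a dotted line of equality. Hsf2bp lies on the line at -1.61 and -1.58, and Stag3 (red), the member called in the interaction, lies far below it at 0.26 and -1.42.

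A list of 42 other meiosis genes was set beside the members, of which 33 had a probe set with 1 symbol. Of these 33, 7 rose and none fell in Ring1B deficient cells, 2 rose and none fell in Eed deficient cells, and 6 rose and 3 fell in double deficient cells. The median log2 change over the 33 genes was 0.25, 0.00 and 0.34 in that order, beside -0.01, 0.01 and 0.12 over all probe sets. Over all probe sets the shares called were 1.63% higher and 0.793% lower with Ring1B lost, 4.27% and 1.67% with Eed lost, and 10.3% and 5.05% with both lost. These shares count every probe set, whereas the list takes the strongest probe set of each gene. With 1 probe set a gene, 2752 higher and 1461 lower of 18193 were called with both lost. The counts of 2 of 33 with Eed lost, and of 6 and 3 of 33 with both lost, are too small to be set apart from the shares. The 7 of 33 with Ring1B lost were not tested against theirs, and the list was chosen with earlier results known. Of the 5 measured genes of the central element, the middle layer of the synaptonemal complex, Syce1, Syce3, Tex12 and 4930447C04Rik (the older symbol of Six6os1) rose in Ring1B deficient cells and Syce2 was not called. This grouping was made after the values were seen.

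Syce1 (1428685_at) averaged 186 ± 68.7 in wild type cells, 550 ± 95.1 with Ring1B lost, 323 ± 28.6 with Eed lost and 867 ± 92.9 with both lost, that is, log2 changes of 1.58, 0.83 and 2.24 over wild type (limma adjusted p 0.001, 0.03 and 1.5e-05). Tex12 averaged 21.5 ± 8.99 in wild type and rose by 2.06 with Ring1B lost (adjusted p = 0.024) and by 2.24 with both lost (adjusted p = 0.0034). Syce3 averaged 93.8 ± 31.4 in wild type and 297 ± 130 in Ring1B deficient cells, a change of 1.59 (adjusted p = 0.028), and its difference in double deficient cells was 0.87 (adjusted p = 0.11). Six6os1 rose by 1.00 in both Ring1B deficient and double deficient cells (adjusted p = 0.018 and 0.0041). Syce2, by contrast, read 2085 ± 235 in wild type and 1771 ± 194 in double deficient cells, a difference of -0.23 (adjusted p = 0.32).

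Tex15, needed for recombination and synapsis in male mice, rose in all 3 mutants. It averaged 39.6 ± 11.2 in wild type cells, 177 ± 103 with Ring1B lost, 182 ± 82.3 with Eed lost and 432 ± 180 with both lost (log2 changes 1.92, 2.01 and 3.22, adjusted p = 0.029, 0.012 and 0.00023). Taf7l, a germ cell paralogue of a general transcription factor subunit, rose by 1.41 with Ring1B lost and 2.04 with both lost (adjusted p = 0.0047 and 7.1e-05). Hormad2, the paralogue of Hormad1, rose in Ring1B deficient cells (1.27, adjusted p = 0.029), while its difference in double deficient cells was -0.06 (adjusted p = 0.91). Meiob, a single-strand DNA-binding recombination factor, fell in double deficient cells, from 110 ± 67.0 to 16.8 ± 8.63 (-2.27, SE 0.60, adjusted p = 0.022). Its differences were -2.01 with Ring1B lost and -1.93 with Eed lost, not called (adjusted p = 0.12 and 0.083). Double deficient cells were not told apart from either single mutant (adjusted p = 0.84 and 0.85). Mnd1 and Psmc3ip, partners that stimulate strand invasion, were the other 2 that fell in double deficient cells (-0.83 and -0.61, adjusted p = 0.012 and 0.034). Like Mei1 below, they are named outside the rule after their values were seen. Mei1, required for meiotic break formation, was the sixth gene that rose in double deficient cells (0.72, adjusted p = 0.038). It averaged 13.8 ± 1.07 in wild type and 26.1 ± 4.06 in double deficient cells. The wild type values of Mei1 were below the lowest array median and so near background, which leaves the size of its change uncertain. The other abundant genes that were not called included Trip13, which remodels HORMA-domain proteins, at 683 ± 193 in wild type and 619 ± 82.4 in double deficient cells. Sgo2a, a protector of centromeric cohesin, read 518 ± 81.4 and 373 ± 70.1 in the same genotypes and was not called against wild type in any mutant. It read 668 ± 113 in Ring1B deficient cells, and double deficient cells were lower than these (-0.83, adjusted p = 0.045). The 7 calls in Ring1B deficient cells became 2 without wild type replicate 1 or Ring1B deficient replicate 3, 4 without Ring1B deficient replicate 1 or 2, and 3 without the arrays of replicate number 2 or with only those groups fitted. The 2 calls in Eed deficient cells became none without wild type replicate 1, Eed deficient replicate 3 or the arrays of replicate number 2, 1 without Eed deficient replicate 2 or with only those groups fitted and 4 without wild type replicate 3, and the 3 falls in double deficient cells became none without double deficient replicate 1 or 3 and 1 without wild type replicate 2 or 3.

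**Figure D5:**
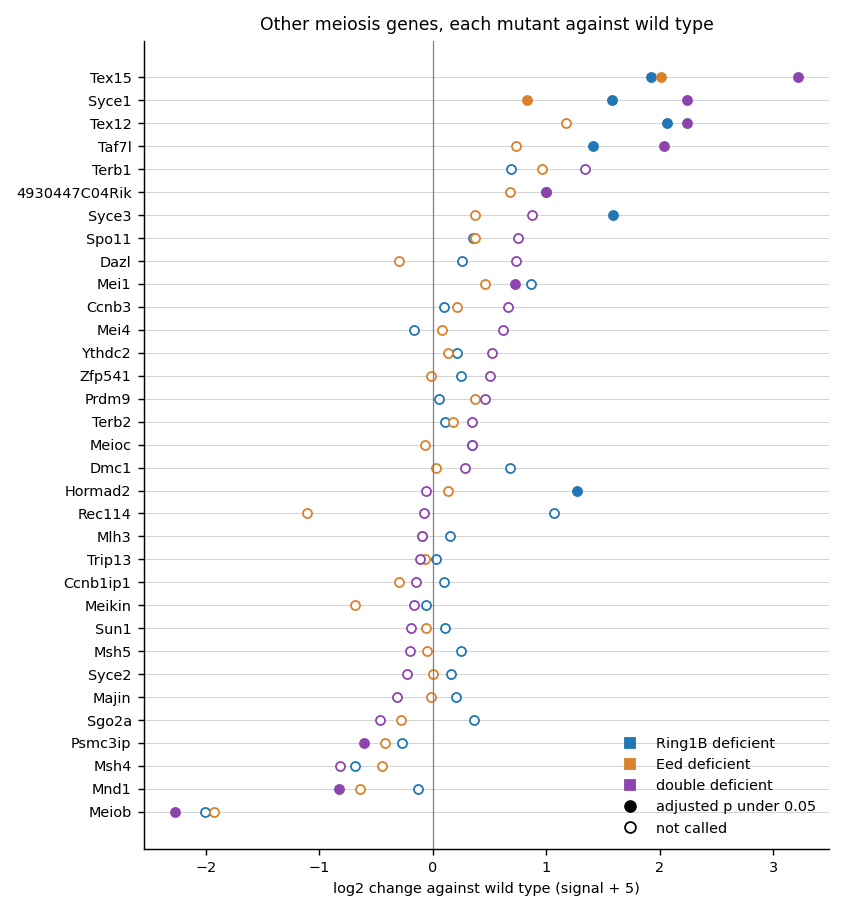
Log2 change of signal + 5 against wild type for the 33 other meiosis genes, 1 probe set a gene, in the 3 mutants, ordered by the double deficient change. Filled points passed an adjusted p under 0.05. Tex15 and Syce1 are filled in all 3 mutants, and Meiob, Mnd1 and Psmc3ip are filled on the left in double deficient cells.

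Of 10 measured genes of the E2F6 complex, E2f6 itself rose in all 3 mutants (log2 changes 0.69, 0.59 and 0.70, adjusted p = 0.023, 0.027 and 0.0052). Yaf2, a RING1-binding subunit, rose in Eed deficient and double deficient cells (0.74 and 0.82, adjusted p = 0.0088 and 0.002). Mga, the scaffold of the complex, fell in double deficient cells (-0.48, adjusted p = 0.016), and the other 7 genes were not called against wild type in any mutant. Over all probe sets, 1.63% were called higher and 0.793% lower with Ring1B lost, and 4.27% and 1.67% with Eed lost. With both lost the shares were 10.3% and 5.05%. The counts in this list are too small to be set apart from these shares. Cbx3 read 20.8 in wild type and 34.0 with both lost, above the array median in only 7 of 12 arrays. Signal that weak limits the change that could be seen. The genes of this list are named after their values were seen.

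Markers of other cells moved with the genotypes, and their part in the members' values was not tested. Of 8 germ cell markers, Mael and Ddx4 rose in Ring1B deficient cells (3.01 and 1.46, adjusted p = 5.4e-07 and 0.0022). The other 6 were not called there, with Dppa3 at -1.46, Prdm1 at -0.97 and Dnd1 at -0.59 (adjusted p = 0.13, 0.075 and 0.13), so the summed signal rests largely on Mael and Ddx4, at 1794 and 895 in Ring1B deficient cells. The summed signal of the 8 ran from 1371 to 1990 in wild type, 3409 to 3953 with Ring1B lost, 1600 to 2471 with Eed lost and 2796 to 3414 with both lost. In that list 1 marker rose and 1 fell with Eed lost, and 2 rose and 2 fell with both lost. Of 7 spermatocyte and spermatid markers, Pgk2, Acr, Tnp1, Prm1, Prm2 and Adam2 lay at or below the array median in all 12 arrays, and no marker of that list was called against wild type. Spermatogonia markers summed to 671 to 841 in wild type, 601 to 651 with Ring1B lost, 685 to 814 with Eed lost and 705 to 791 with both lost. The Ring1B deficient arrays thus lay below the wild type arrays. Of these 7 markers, 1 was lower in each single mutant, and 1 was higher and 1 lower in double deficient cells. Fibroblast and feeder markers summed to 1594 to 2064 in wild type, 1194 to 1546 in Ring1B deficient and 3861 to 4272 in double deficient arrays, with 6 of 9 higher in the last, and to 1800, 1890 and 4317 in the Eed deficient arrays, of which replicate 3 was the highest and where 2 of 9 were higher. Visceral endoderm markers summed to 95 to 155 in wild type and to 1131 to 3504 over the mutant arrays, with 6, 7 and 6 of 7 higher. The 6 ES cell markers were above the array median in all 12 arrays. They summed to 15348 to 15782 in wild type and 13605 to 15344 with Ring1B lost. Their sums were 12169 to 14360 with Eed lost and 10894 to 12457 with both lost. Every mutant array thus lay below the wild type arrays. None of the 6 was called with Ring1B lost, 1 was lower with Eed lost and 3 were lower with both lost.

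The genes most like each changed member across the 12 arrays, by Pearson's r on the log2 scale among 11459 genes, are given as a description, since the arrays share their genotypes and scaling. For Tex11 they were Tada1 (r = 0.977), Mael and Piwil2 (0.968 each), the last 2 being piRNA pathway genes of the germ line. For Sycp2 they were Slc25a31 (0.958), Ssr4 (0.941) and Syce1 (0.940), and for Sycp1 Asz1 (0.951) came first. Asz1 averaged 26.1 in wild type, 25.8 with Ring1B lost, 27.0 with Eed lost and 38.8 with both lost. That is a smaller rise than that of Sycp1, from signal near the array medians. For Hsf2bp they were Hnrnpf (0.967), Rnf2 (0.960), which encodes Ring1B itself, and Ahi1 (0.935). Rbpj led for Stag3 (0.942) and Dnd1, an RNA-binding protein of primordial germ cells, led for Hormad1 (0.925). Among the members themselves, Sycp2 and Tex11 ran together (r = 0.90) and Hsf2bp ran opposite to both (-0.82 with Sycp2 and -0.89 with Tex11). Sycp1 and Stag3 also ran opposite to each other (-0.81).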

How the data were processed

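RNA of 12 ES cell samples was extracted with Trizol and hybridised by a commercial provider, per the labels' protocols. The deposited values are intensity values made by the authors with MAS5, per the submitters' processing notes; no source used here gives its version or settings, and detection calls were not used. Of 45101 probe sets, 64 controls were left out; of the rest, 34945 carried 1 gene symbol (18193 genes), 932 several and 9160 none in the platform annotation.

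Values were taken as log2(signal + 5), which understates changes of weak probe sets. limma 3.58.1 in R 4.3.3 fitted 1 mean per genotype to all 12 arrays with an intensity trend, and p-values were Benjamini-Hochberg adjusted over 45037 probe sets. The step was tested on simulated data with independent noise in every array. Deviations shared by arrays of the same replicate number were not simulated, so the fit was not tested under them. A probe set is called at an adjusted p under 0.05. List genes used the probe set with the highest mean. From the other meiosis genes, up to 8 called genes by size of change in any mutant and up to 3 uncalled genes with the highest mean signal are named. Members and lists were chosen with earlier results of these data known. Alternatives were other scalings, added values (1 and 20), filters, samples and a replicate block. Same-numbered arrays deviated together (every correlation over 0.1) only between Ring1B deficient and Eed deficient cells, at 0.203, 0.399 and 0.103. Values given are from the fit without a replicate block, also for that comparison, unless the block is named. The number of arrays limits the precision.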

Additional observations from a re-analysis of the deposited data

Results flagged for a closer look

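Stag3 (1460229_at) differed between backgrounds in its change on losing Ring1B: the interaction was -1.67 (limma adjusted p = 0.0049), with a change of -1.42 in Eed deficient cells and a difference of 0.26, not called, in wild type cells. All 3 double deficient arrays were below the Eed deficient arrays, and the wild type and Ring1B deficient arrays overlapped.

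Mael (1436837_at), a germ cell marker listed beside the members, differed likewise: its interaction was -1.56 (limma adjusted p = 0.0083). It rose on losing Ring1B from 221 to 1794 in wild type cells and from 432 to 1185 in Eed deficient cells, by 3.01 and 1.45 on the log2 scale.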

How the results depend on the processing

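The alternatives were 2 other scalings, added values of 1 and 20, 2 filters on low signals, 1 probe set a gene, no intensity trend, only the groups compared, a replicate block, each array left out in turn and, chosen after the data were seen, the fit without the 4 arrays of replicate number 2. Over the 77 member results, 1713 of 1746 values under them kept their side of the threshold, 17 lost a call and 16 gained one. The 64 values that changed sign were called in neither setting. Member probe sets called in Eed deficient against wild type cells were 1 rather than 2 with only the groups compared and without the replicate 2 arrays, and 1 to 2 with each array left out. Eed deficient against Ring1B deficient cells gave 1 rather than 2 with only the groups compared and without the replicate 2 arrays. Double deficient against Eed deficient cells gave 1 rather than 4 without the replicate 2 arrays. The interaction gave 0 rather than 1 without them, 1 to 2 with each array left out, and 4 with the replicate block. The cause was not tested.

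Outside the comparison of the single mutants, the replicate numbers fell short of a pairing over 0.1 in every pair, although they were not without signal: deviations from the genotype means correlated between same-numbered arrays at 0.064 to 0.26 for number 1, 0.141 to 0.399 for number 2 and -0.033 to 0.103 for number 3, beside a median of -0.093 for different numbers. The mean correlation was highest with the own number in 9 of 12 arrays, a hint from the data and not from the design. The replicate block raised the member calls in double deficient against wild type cells from 6 to 8 and no member call changed direction. It called Sycp3 lower with Eed lost and with both lost (adjusted p = 0.03 and 0.0024), Hormad1 lower with Ring1B lost (0.006) and in double deficient against Ring1B deficient cells (0.018), Stra8 higher with both lost (0.027), Sycp2 higher in double deficient against Eed deficient cells (0.04), and the interactions of Sycp1 (0.016), Hormad1 (0.031) and Tex11 (0.032). Among the other meiosis genes it gave 10 higher with Ring1B lost, and 5 higher and 4 lower with Eed lost.

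Subtracting array medians moved the median of all probe sets in double deficient against wild type cells from 0.12 to -0.13. It moved the split of calls, higher and lower, from 2627 and 1065 to 1351 and 3062 against Ring1B deficient cells, from 168 and 112 to 113 and 323 against Eed deficient cells, from 101 and 146 to 70 and 215 in the interaction, from 1924 and 751 to 1455 and 991 in Eed deficient against wild type cells, and from 464 and 150 to 243 and 141 between the single mutants. Quantile normalization gave 1710 and 1363 against Ring1B deficient cells and 125 and 148 against Eed deficient cells. Over all alternatives, the probe sets called higher and lower ran from 315 to 1501 and 126 to 1013 in Ring1B deficient against wild type cells (732 and 357 as reported), 1007 to 3106 and 282 to 1957 in Eed deficient against wild type cells, 2737 to 6055 and 1340 to 5328 in double deficient against wild type cells, 1224 to 4055 and 373 to 3062 in double deficient against Ring1B deficient cells, 11 to 663 and 11 to 617 in double deficient against Eed deficient cells, 48 to 1193 and 19 to 593 between the single mutants, and 10 to 419 and 31 to 631 in the interaction. The weaker Hsf2bp probe set lay near background, where low signal limits the change that could be seen, and the filter on the mean left it out.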
